A study of Mus musculus with 6 samples.

Results

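The transcripts described here encode the nuclear subunits of respiratory complexes III and IV and of ATP synthase, which is complex V. Members were the protein-coding genes whose mouse symbol begins with Uqcr, with Cox and a digit from 4 to 8, or with Atp5. Of the 56941 gene identifiers in the count table, 46 met this rule, namely 8 of complex III, 19 of complex IV and 19 of complex V. RNA-seq was performed on 6 samples of CD8+ T cells, 3 of them S1P-treated and 3 vehicle-treated. The labels give naive CD8+ T cells purified from the spleens of B6 mice, and the methods of the study name either purified naive T cells or whole splenocytes as starting material. All cultures received plate-bound antibody to CD3, antibody to CD28 and recombinant IL2 at 100 U/ml for 3 days, and S1P at 5 µM or its vehicle was added 24 h into that period. S1P is sphingosine-1-phosphate, a lipid ligand of receptors such as S1PR1. Samples are numbered in the labels as biological replicates 1 to 3 of each treatment, and nothing states whether each came from its own mouse, so p-values measure only the spread between these samples.

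Complex III takes electrons from ubiquinol and hands them to cytochrome c, and complex IV passes them to oxygen. Both pump protons out of the mitochondrial matrix, and ATP synthase lets the protons return through a rotating ring of c subunits that drives ATP formation in its F1 head. Mitochondrial DNA encodes the cytochrome b subunit of complex III, the catalytic core of complex IV and part of the membrane sector of complex V, whereas the nucleus encodes the other subunits, and activated T cells are known to expand this machinery as they grow.

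Total counts ranged from 12048880 to 17384084 per sample, and each tested member had between 59 and 98514 counts over the 6 samples. S1P-treated replicate 2 stood apart from the other libraries. Mitochondrially encoded genes made up 7.80% of its counts, against 4.10% to 4.93% in the other 5 samples. It differed from S1P-treated replicates 1 and 3 by chi-square values of 31.4 and 17.8 per gene, whereas vehicle-treated samples differed among themselves by 3.77 to 3.97 and S1P-treated replicates 1 and 3 by 5.97. All 6 genes of a T cell list (Cd3d, Cd3e, Cd3g, Cd8a, Cd8b1 and Trac) were detected in every sample, with summed normalized counts of 15873 to 18181 in vehicle-treated and 13781 to 15301 in S1P-treated samples. Normalized counts are counts scaled by TMM factors to a common library size. Transcripts of other lymphocytes were present in both groups. Of the B cell genes, Ms4a1 had 2691 to 3339 normalized counts with vehicle and 2197 to 2495 with S1P, and Pax5 had 2027 to 2618 and 2632 to 3666. All 3 CD4 T cell genes were detected in every sample, at summed normalized counts of 3007 to 3588 with vehicle and 3183 to 4193 with S1P. Myeloid genes (3 of 5 in every sample) summed to 52.3 to 65.5 and 43.4 to 81.7, NK cell genes (3 of 3) to 21.0 to 23.5 and 11.4 to 35.8, and erythroid genes to 1.07 to 1.87 and 1.28 to 7.996. The part of these other cells in the results below was not tested, and in bulk RNA fewer cells of a type and less RNA per cell cannot be told apart.

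Short promoter sequences are shown first, because members of these complexes are known targets of the factors NRF1, GABP and YY1. RefSeq promoter windows of build GRCm38.p6, from 250 bases before to 50 after the annotated start, were matched for 32 of the 46 members, and some members had more than 1 start, giving 35 windows. Each window was searched on both strands for the NRF1 letters CGCATGCG, the ETS letters CCGGAAG that GABP recognizes and the YY1 letters AAGATGGC. The NRF1 letters stood in 7 of the members' windows (20%) and in 1.87% of all 32851 windows, the ETS letters in 28.6% and 8.86%, and the YY1 letters in 8.57% and 2.75%. The background of all windows was not limited to genes detected in these samples or matched for base composition. Whether the higher shares are particular to the members was not tested. The 7 members that hold the NRF1 letters are listed with 30 bases each, read 5′ to 3′ along the gene's strand, with the letters in capitals. Positions are those of the same sequence in GRCm39.
Atp5mc2 (chr15:102579505-102579534, minus strand): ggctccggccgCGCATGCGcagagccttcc
Atp5me (chr5:108582296-108582325, minus strand): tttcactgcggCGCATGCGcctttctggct
Atp5mg (chr9:44832261-44832290, minus strand): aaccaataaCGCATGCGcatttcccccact
Atp5pf (chr16:84631993-84632022, minus strand): aggccagaataCGCATGCGtacagtgcagt
Cox6a1 (chr5:115487160-115487189, minus strand): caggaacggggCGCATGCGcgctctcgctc
Uqcr11 (chr10:80242642-80242671, minus strand): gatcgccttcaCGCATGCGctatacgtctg
Uqcrc1 (chr9:108765736-108765765, plus strand): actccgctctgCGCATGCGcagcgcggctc

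In the GENCODE vM39 annotation, 5 of these 7 stretches overlap an untranslated exon of at least 1 transcript of the gene, and those of Atp5mg and Cox6a1 lie outside its exons. Among the 9 members that passed both thresholds as lower (below), 8 had a window. Of these 8, Atp5f1e alone held the ETS letters, here on the opposite strand and at position -102 from the start, and Atp5mf alone held the YY1 letters, at position 24. These sites are shown because they are the matches found among members called lower.
Atp5f1e, ETS letters (chr2:174305978-174306007, minus strand): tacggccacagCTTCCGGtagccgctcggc
Atp5mf, YY1 letters (chr5:145128310-145128339, minus strand): accaggacttcAAGATGGCgtcactcggtg

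Of the 7 tested members with the NRF1 letters, 0 were called lower, beside 10.4% of all tested genes, and Uqcrc1, Atp5pf and Atp5mg passed the adjusted p as lower without reaching the fold threshold. A match describes letters in a window, and a window without a match says nothing about a factor's binding.

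Across all genes, 13299 passed the filter on low counts and were tested with edgeR's quasi-likelihood test, and adjusted p values below are Benjamini-Hochberg values over these genes. A gene was called when its adjusted p was at most 0.05 and its log2 fold change, S1P over vehicle, was at least 0.3 in size. Of the 46 members, 39 were tested (8 of complex III, 13 of complex IV and 18 of complex V). Called lower were 9 of the 39 (23.1%), beside 10.4% of all tested genes. Without vehicle-treated replicate 3, 3 of the 39 were called lower, beside 7.12% of all tested genes, and without vehicle-treated replicate 2, 4 of the 39, beside 8.32%, so the members' share was then close to that of all genes. Called higher was 1 member (2.56%), beside 12.7% of all tested genes. The median log2 fold change of the members was -0.20, and that of all tested genes was 0.01. Values were negative for 30 members (76.9%), beside 48.5% of all tested genes, and positive for 9. By the adjusted p alone, 16 members were lower, beside 13.8% of all tested genes. In 16 members (41.0%) all S1P-treated samples lay below all vehicle-treated samples, a pattern found in 22.6% of all tested genes.

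**Figure D1:**
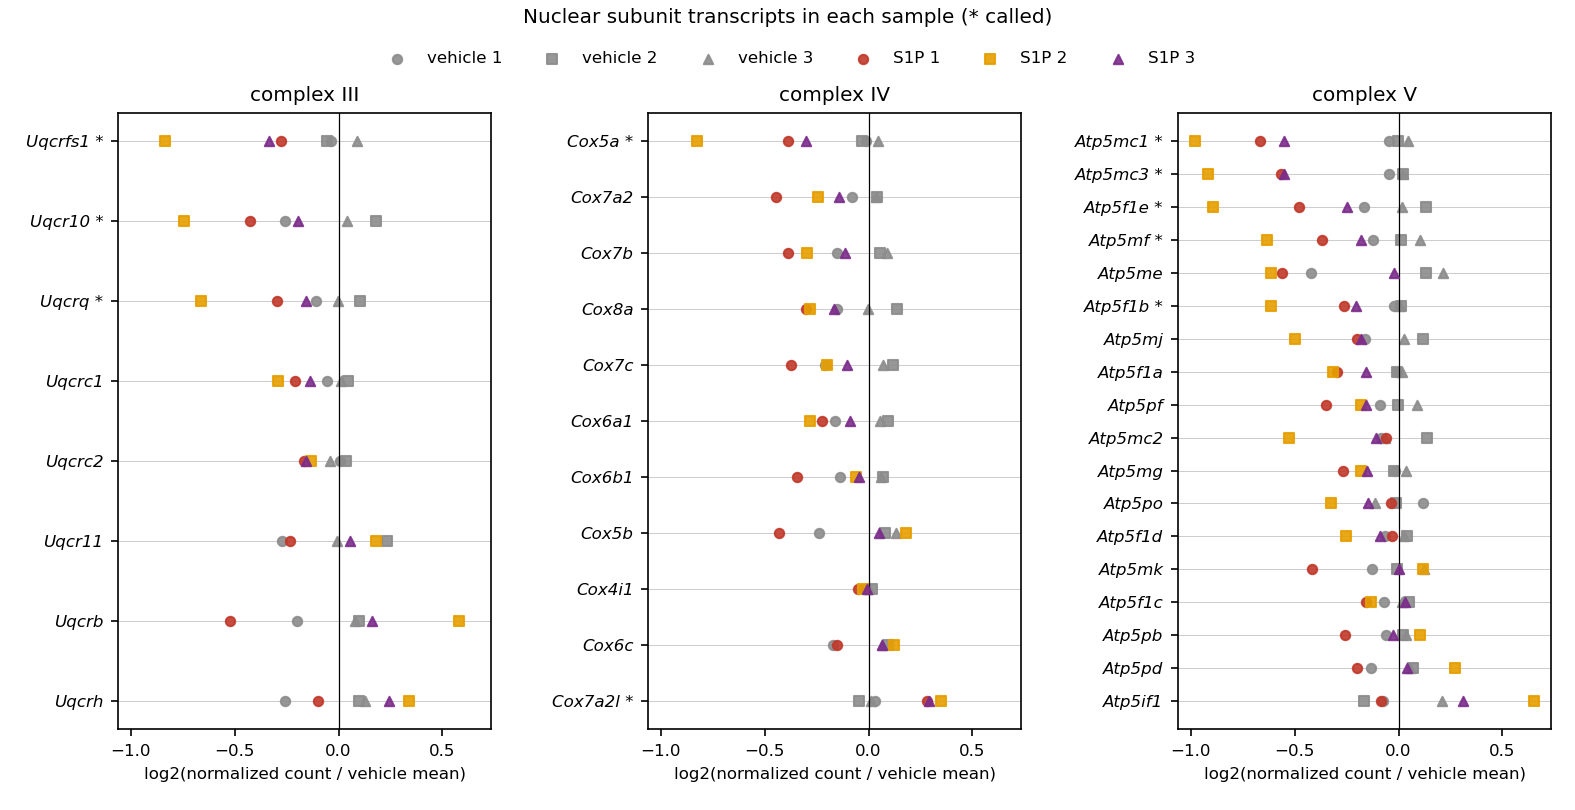
Points give the log2 ratio of each sample's normalized count to the vehicle mean (horizontal axis) for the 37 tested members with more than 500 counts in total, by complex and ordered by fold change, with grey symbols for vehicle and colours for S1P-treated replicates. Asterisks mark the 10 called members, and S1P-treated replicate 2 (orange squares) holds the lowest value in every row called lower and the highest in several others.

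The samples did not share the members' extremes evenly. S1P-treated replicate 2 had the lowest value of all 6 samples in 17 of 39 members, among them every member called lower, and the highest in 10. Over all tested genes it was lowest in 26.3% and highest in 26.6%. S1P-treated replicate 1 was lowest in 16 members (41.0%, beside 17.2% of all tested genes) and highest in 0, while S1P-treated replicate 3 was neither lowest nor highest in any. Among vehicle-treated samples, replicate 2 was highest in 17 members (43.6%, beside 13.8%) and replicate 3 in 11 (28.2%, beside 16.2%).

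Of the 8 complex III members, 3 were called lower (37.5%, beside 10.4% of all tested genes), and 0 when vehicle-treated replicate 3 was left out (beside 7.12%). The complex had its median log2 fold change at -0.18. Per sample, the members' median log2 ratio to the vehicle mean was -0.148, 0.105 and 0.033 in vehicle-treated replicates 1 to 3. In S1P-treated replicates 1 to 3 it was -0.246, -0.212 and -0.145, so the groups overlapped. Uqcrfs1 (ENSMUSG00000038462, chr13:30723448-30729345), the Rieske iron-sulfur protein that moves electrons from ubiquinol towards cytochrome c, had the largest fall. Its normalized counts were 1722, 1697 and 1879 in vehicle-treated replicates 1 to 3 and 1459, 991 and 1402 in S1P-treated replicates 1 to 3. The groups did not overlap, and S1P-treated replicate 2 was the lowest by a wide margin. The log2 fold change was -0.46 (SE 0.12, adjusted p = 0.015). Without vehicle-treated replicate 3 the call of Uqcrfs1 was lost (-0.41, adjusted p = 0.0687).

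Uqcr10 (ENSMUSG00000059534, chr11:4651968-4654653), a small membrane subunit, gave 575, 779 and 707 normalized counts with vehicle and 511, 410 and 601 with S1P. Its highest S1P-treated value exceeded its lowest vehicle-treated value, so the groups overlapped. The log2 fold change was -0.43 (SE 0.14, adjusted p = 0.0353). Uqcrq (ENSMUSG00000044894, chr11:53318749-53322047), a small subunit near cytochrome b, gave 670, 775 and 720 with vehicle and 588, 456 and 647 with S1P, with no overlap. It fell by 0.35 on the log2 scale (SE 0.11, adjusted p = 0.0387). Calls of Uqcr10 and Uqcrq each held in 2 of the 6 fits that left out 1 library. Leaving out S1P-treated replicate 2 gave -0.31 (adjusted p = 0.0574) and -0.23 (adjusted p = 0.0499). Uqcr10 also lost its call with an offset for GC content, and Uqcrq with upper-quartile factors and with an offset for transcript length.

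The core proteins Uqcrc1 and Uqcrc2, which form the matrix-facing part of the complex, had smaller differences and close replicates. Uqcrc1 counts were 1506, 1615 and 1580 with vehicle and 1353, 1281 and 1424 with S1P. Uqcrc1 passed the adjusted p (0.0377) and not the fold threshold, at -0.21 (SE 0.07). Uqcrc2 counts were 2626, 2679 and 2540 with vehicle and 2332, 2383 and 2350 with S1P. In both core genes the groups did not overlap, yet Uqcrc2 missed the threshold at -0.15 (SE 0.06, adjusted p = 0.0857). It shares 29.7% of its exon bases with genes of the opposite strand.

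With all samples, the highest value of complex III was that of Uqcrh, the hinge protein near cytochrome c1. Its counts were 1329, 1703 and 1732 with vehicle and 1482, 2006 and 1880 with S1P, overlapping, with a log2 fold change of 0.17 (SE 0.12, adjusted p = 0.321) that ranged from 0.05 to 0.29 without each library. Uqcrb, which binds near the ubiquinone site, had the widest S1P-treated spread of the complex, at 569, 1219 and 913 against 712, 875 and 864, and a log2 fold change of 0.13 (SE 0.20, adjusted p = 0.676). Leaving the S1P-treated replicate 2 out gave -0.15 for Uqcrb, and leaving out S1P-treated replicate 1 gave 0.38. Exact copies elsewhere in the genome hold 23.3% of the 100-base stretches of the Uqcrb transcript. Uqcr11, another small subunit, was at 0.01.

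Complex IV showed 1 member called lower and 1 called higher among 13 tested (7.69% each), no more than the 10.4% and 12.7% of all tested genes. Its median log2 fold change was -0.14, and -0.05 without S1P-treated replicate 1. Per sample, the members' median log2 ratio to the vehicle mean was -0.13, 0.07 and 0.04 in vehicle-treated replicates 1 to 3. In S1P-treated replicates 1 to 3 it was -0.34, -0.06 and -0.04, so the groups overlapped. Cox5a (ENSMUSG00000000088, chr9:57428456-57440678), a matrix-facing subunit, was the member that fell. Its counts were 1037, 1021 and 1078 with vehicle and 800, 590 and 848 with S1P. Every S1P-treated sample lay below every vehicle-treated one. The log2 fold change was -0.48 (SE 0.11, adjusted p = 0.00808), and the call held without each library in turn, from -0.59 to -0.34. An antisense gene, Gm26631, covers 41.4% of the exon bases of Cox5a but had at most 13 counts in any sample.

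Cox7a2l (ENSMUSG00000024248, chr17:83765970-83824759), also called Scaf1, is known for a role in joining complexes III and IV into supercomplexes. Whether its protein does so in cells of B6 mice was not examined here. Its counts were 1570, 1488 and 1546 with vehicle and 1867, 1956 and 1875 with S1P. All S1P-treated values lay above all vehicle-treated values, and the 3 S1P-treated replicates were close to each other. Cox7a2l rose by 0.31 on the log2 scale (SE 0.06, adjusted p = 0.00435), the smallest change in size among the called members. Because that value lay near the fold threshold of 0.3, the call was lost where it slipped below, with 0.29 without S1P-treated replicate 2 (adjusted p = 0.00172) and 0.28 without vehicle-treated replicate 2 (adjusted p = 0.031). The call was also lost with total counts as the only scaling and with no filter on low counts. Exact copies elsewhere in the genome hold 27.3% of the 100-base stretches of the Cox7a2l transcript.

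The small membrane subunits Cox7a2, Cox7b and Cox8a passed the adjusted p and not the fold threshold. Their log2 fold changes were -0.27 (adjusted p = 0.0334), -0.26 (adjusted p = 0.0459) and -0.25 (adjusted p = 0.0455). Cox4i1, the regulatory subunit that binds adenine nucleotides, was at -0.03 (SE 0.06) with vehicle counts of 2235 to 2292 and S1P counts of 2188 to 2255. Cox5b, which carries a zinc ion, was at -0.05, and Cox6c, a small transmembrane subunit, at 0.02. Cox6a1, Cox6b1 and Cox7c lay between -0.14 and -0.22. Exact copies elsewhere in the genome hold 68.3% of the 100-base stretches of the Cox7c transcript and 21.8% of those of Cox5b. Of the 39 tested members, 19 have some stretch copied in this way.

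Of the 7 tissue-restricted isoforms of complex IV, only Cox6b2, known from testis, passed the filter. Its normalized counts were 9.23, 6.40 and 7.48 with vehicle and 10.6, 12.8 and 12.6 with S1P. The groups did not overlap, but the log2 fold change of 0.60 had an SE of 0.35 and did not pass the test (adjusted p = 0.227). It was the largest positive value of complex IV. Untested were Cox4i2, Cox6a2, Cox7a1, Cox7b2, Cox8b and Cox8c, with at most 10 counts in any sample, and a second identifier of Atp5po with 0 counts. Cox6a2, the heart and muscle isoform, had 3, 1 and 2 counts with vehicle and 7, 6 and 5 with S1P. Cox5b-ps, a retrocopy annotated as protein-coding, was at 0.32 (SE 0.46) with its highest value in S1P-treated replicate 2 (21.7 normalized counts, against 6.55 to 10.7 in the other samples). It was at -0.29 when that sample was left out, and it shares 29.1% of its 100-base stretches exactly with other loci.

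Complex V held 5 of the 9 members called lower, among 18 tested (27.8%, beside 10.4% of all tested genes), and its median log2 fold change was -0.22. Calls in complex V numbered 2 of the 18 when vehicle-treated replicate 2 or 3 was left out, beside 8.32% and 7.12% of all tested genes. They numbered 3 of the 18 when S1P-treated replicate 2 was left out, beside 9.15%. In these fits the share of complex V was closer to that of all genes than with every sample. Log2 fold changes were negative for 16 of the 18 (88.9%, beside 48.5%), and in 9 of the 18 (50%, beside 22.6%) all S1P-treated samples lay below all vehicle-treated ones. Atp5f1b and Atp5f1a, which encode the catalytic beta and the alpha subunit of the F1 head, had the highest levels per kilobase of transcript of all members, at 9324 and 5575 normalized counts per kilobase of full transcript length with vehicle. Atp5f1b (ENSMUSG00000025393, chr10:127919132-127926261) had 17714, 18128 and 18032 normalized counts with vehicle and 14992, 11721 and 15585 with S1P. The groups did not overlap and replicate 2 was lowest. Its log2 fold change was -0.35 (SE 0.10, adjusted p = 0.0225). The call of Atp5f1b was lost when any 1 of the vehicle-treated samples was left out (adjusted p of 0.0648 to 0.0747). Without S1P-treated replicate 2 it passed the adjusted p and not the fold threshold (-0.23, adjusted p = 0.00716). Atp5f1a had 13716, 13698 and 13913 with vehicle and 11231, 11058 and 12371 with S1P, again without overlap. It was at -0.25 (SE 0.07, adjusted p = 0.0214), under the fold threshold, and it too lost the adjusted p when any 1 vehicle-treated sample was left out.

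The c ring had the largest changes of all members. Mammals carry 3 genes for it, Atp5mc1, Atp5mc2 and Atp5mc3, whose proteins differ in the import sequence that is cut off and give the same mature c subunit. Atp5mc1 (ENSMUSG00000006057, chr11:95959678-95966757) had 740, 761 and 787 normalized counts with vehicle and 481, 387 and 520 with S1P. It fell by 0.72 on the log2 scale (SE 0.10, adjusted p = 0.000475). Atp5mc3 (ENSMUSG00000018770, chr2:73738779-73741933) had 2963, 3106 and 3109 with vehicle and 2066, 1623 and 2090 with S1P. In both genes the groups lay far apart, with the highest S1P-treated sample well under the lowest vehicle-treated one. Atp5mc3 fell by 0.67 (SE 0.09, adjusted p = 0.000426). Both calls held without each library in turn, from -0.81 to -0.61 for Atp5mc1 and from -0.73 to -0.56 for Atp5mc3.

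Atp5mc2 (ENSMUSG00000062683, chr15:102571295-102580787) had 851, 991 and 862 normalized counts with vehicle and 864, 626 and 835 with S1P. Here the groups overlapped and only S1P-treated replicate 2 stood clearly below the vehicle-treated samples. Its log2 fold change was -0.21 (SE 0.11, adjusted p = 0.187), and without S1P-treated replicate 2 it was -0.08 (adjusted p = 0.468). Normalized counts of the 3 genes together were 4554, 4858 and 4759 with vehicle and 3411, 2636 and 3445 with S1P, 67.0% of the vehicle mean.

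The 3 genes were also compared by their shares of the ring's transcripts. Per kilobase of transcript, Atp5mc1 made up 22.4% ± 0.640 (SD, n = 3) of the c ring counts with vehicle and 20.1% ± 0.672 (SD, n = 3) with S1P. Atp5mc2 made up 22.1% ± 1.35 with vehicle and 28.1% ± 0.920 with S1P, and Atp5mc3 55.5% ± 0.715 and 51.8% ± 0.545. Groups did not overlap for any of these shares, with the S1P-treated samples lower for Atp5mc1 and Atp5mc3 and higher for Atp5mc2. The exact permutation test, two-sided, gave p = 0.1 for each share, also after adjustment over the 3, which is the smallest value that 3 against 3 samples allow.

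Sequence copies limit these comparisons of level. Exact copies elsewhere in GRCm39 hold 65.3% of the 100-base stretches of the Atp5mc1 transcript and 87.5% of those of Atp5mc2, and none of Atp5mc3. The pseudogene Gm10039, which holds most copies of Atp5mc1, had at most 7 counts in any sample, and Gm10175 and Gm10231, which hold those of Atp5mc2, had at most 6. The treatment of reads with several matches is not stated, but 4 of the mitochondrial subunit genes bear on it. All 100-base stretches of mt-Co2, mt-Co3, mt-Atp6 and mt-Atp8 have an exact copy elsewhere in the genome, and these genes had mean normalized counts of 110, 136, 82.4 and 9.12 with vehicle. In contrast, mt-Cytb, with no such copy, had 89832 and mt-Co1, with 30.8%, had 173271. Low counts of fully copied genes are what leaving out reads with several matches would give. Counts of Atp5mc1 and Atp5mc2 would then cover fewer of their stretches, but this was not tested. The study's reads were paired and longer than 100 bases, so pairs reaching past a copy could still be placed. The stretches without a copy are therefore only a rough stand-in for the length that was counted. When only stretches found once in the genome were taken as length (an alternative chosen after the data were seen), the share of Atp5mc2 was 59.6% with vehicle and 67.2% with S1P, and its vehicle level of 11411 per kilobase exceeded that of Atp5f1b on full length. The order of levels thus depends on this choice, while the directions of all 3 shares were the same. On that length the summed level of the 3 genes with S1P was 76.2% of the vehicle mean, in place of 67.0% for normalized counts, and the groups did not overlap.

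**Figure D2:**
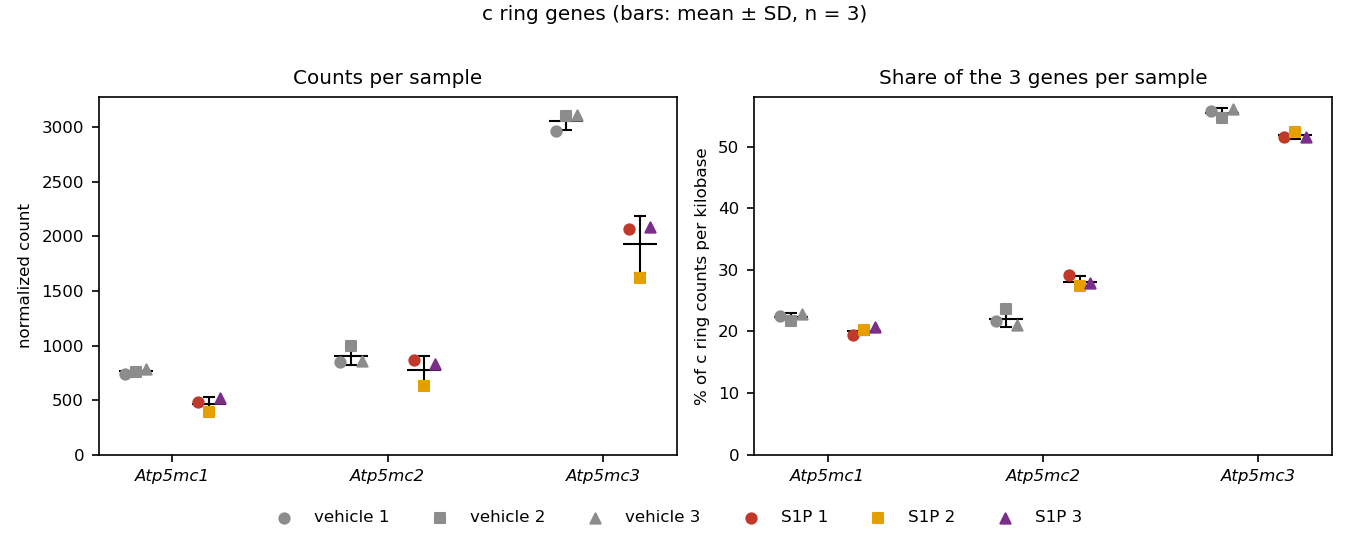
Normalized counts (left) and shares of c ring counts per kilobase (right, percent) of the 3 c ring genes in each sample, with bars for mean ± SD of 3 samples. Counts of Atp5mc1 and Atp5mc3 separate the groups, counts of Atp5mc2 overlap, and the share of Atp5mc2 is higher in all S1P-treated samples.

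Of the F1 central stalk, Atp5f1e (ENSMUSG00000016252, chr2:174302861-174305906), the epsilon subunit, had 559, 688 and 634 normalized counts with vehicle and 450, 338 and 528 with S1P. No S1P-treated sample reached the vehicle-treated range. The log2 fold change was -0.51 (SE 0.14, adjusted p = 0.0166), and the call was lost without vehicle-treated replicate 2 (-0.44, adjusted p = 0.0731) or vehicle-treated replicate 3 (-0.50, adjusted p = 0.0593). Atp5f1c and Atp5f1d, the gamma and delta subunits of the same stalk, were at -0.08 (SE 0.07) and -0.12 (SE 0.08) and did not pass the test.

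Among small membrane subunits, Atp5mf (ENSMUSG00000038690, chr5:145120505-145128872), subunit f, had 1062, 1165 and 1239 normalized counts with vehicle and 896, 746 and 1019 with S1P, without overlap. It fell by 0.38 (SE 0.10, adjusted p = 0.0191). Without S1P-treated replicate 2 it stayed past the adjusted p and not the fold threshold (-0.27, adjusted p = 0.0188), and it lost the adjusted p without vehicle-treated replicate 2 (0.0615) or 3 (0.0901). Atp5mg, subunit g, was at -0.20 (adjusted p = 0.0476), with 57.4% of its stretches copied elsewhere. Atp5me, subunit e, which holds ATP synthase dimers together with subunit g, had a log2 fold change of -0.37 with an SE of 0.18 (adjusted p = 0.139). Atp5me was called with the replicate number as a block (-0.36, adjusted p = 0.0376), with no filter on low counts (-0.40, adjusted p = 0.00423), and when either vehicle-treated replicate 1 (-0.55, adjusted p = 0.0379) or S1P-treated replicate 3 (-0.59, adjusted p = 0.0422) was left out. Atp5mj and Atp5mk, small proteins bound to the membrane sector, were at -0.28 (adjusted p = 0.0567) and -0.09 (adjusted p = 0.628).

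No member of the peripheral stalk, which holds the F1 head still against the turning ring, was called. Atp5pf was at -0.23 (adjusted p = 0.0446) and passed the adjusted p alone, while Atp5pb (-0.05), Atp5pd (0.05) and Atp5po (-0.16) did not pass. For Atp5pf, 29.6% of the exon bases lie under genes of the opposite strand, Gabpa among them. Atp5if1, the inhibitor that stops ATP synthase from running backwards, had the highest value of complex V. Its counts were 192, 180 and 234 with vehicle and 191, 318 and 250 with S1P, overlapping, at 0.30 (SE 0.17, adjusted p = 0.208). Leaving out S1P-treated replicate 2 gave 0.11.

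Without S1P-treated replicate 2, the log2 fold changes of all 9 members called lower were closer to 0. With 2 S1P-treated against 3 vehicle-treated samples, 5 members were called lower, beside 9.15% of 13657 tested genes, and all 5 had also been called with every sample (Uqcrfs1, Cox5a, Atp5f1e, Atp5mc1 and Atp5mc3). They were 1 of complex III, 1 of complex IV and 3 of complex V. No member was called higher, beside 1588 of the 13657 tested genes, and Cox7a2l passed the adjusted p alone. By the adjusted p alone 16 members were lower, 15 of them the same as with all samples, beside 14.6% of all tested genes. Negative values were found for 35 of the 39 members. Medians of log2 fold change were -0.17 for complex III, -0.19 for complex IV and -0.20 for complex V, and that of all tested genes was 0.00339.

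**Figure D3:**
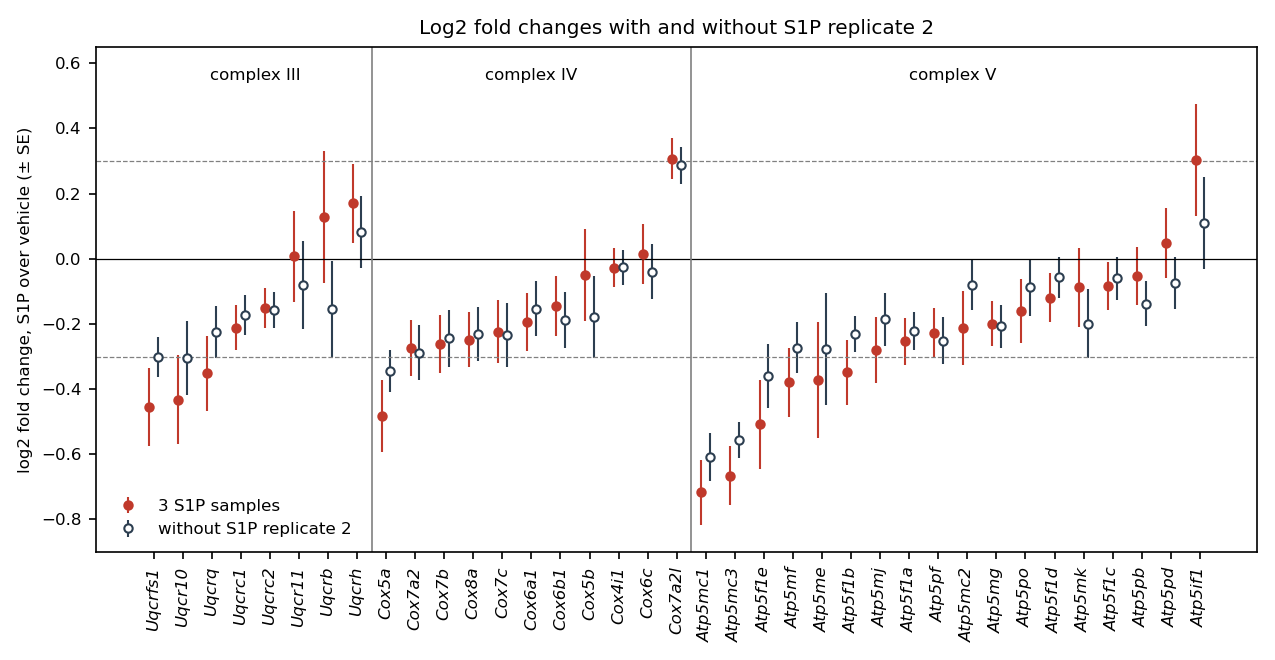
Log2 fold changes of S1P over vehicle with SE bars for the 37 tested members above 500 counts, from all 6 samples (filled) and without S1P-treated replicate 2 (open), with dashed lines at the fold threshold of 0.3. Atp5mc1 moved from -0.72 to -0.61 and Atp5mc3 from -0.67 to -0.56, and Uqcrb moved from above to below 0.

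Calls of 3 members, Cox5a, Atp5mc1 and Atp5mc3, held under every alternative run, including each library left out in turn.

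Counts were also summed over the tested nuclear members of each complex and set beside a mitochondrially encoded subunit. Nuclear members of complex III summed to 85.0%, 90.3% and 94.7% of the vehicle mean in S1P-treated replicates 1 to 3, those of complex IV to 86.2%, 94.4% and 98.0%, and those of complex V to 82.4%, 77.8% and 89.6%. Vehicle-treated samples ranged from 93.3% to 104% for complex III, from 92.8% to 104% for complex IV and from 97.1% to 102% for complex V. Only for complex V did all 3 S1P-treated sums lie below all vehicle-treated sums, and that sum is mostly Atp5f1a and Atp5f1b, which held 31430 of its 53129 normalized counts in vehicle-treated replicate 1. mt-Cytb, the mitochondrially encoded cytochrome b of complex III, was at 90.3%, 192% and 106% of its vehicle mean in the S1P-treated replicates. mt-Co1, the catalytic subunit of complex IV, was at 108%, 162% and 117%, and mt-Atp6, the proton channel subunit of complex V, at 107%, 174% and 134%. The values of mt-Atp6 rest on a vehicle mean of only 82.4 normalized counts, with all its stretches copied elsewhere. In all 3 genes replicate 2 was the highest sample by far, and for mt-Co1 and mt-Atp6 the groups did not overlap. None of the 5 tested mitochondrially encoded subunits was called by edgeR, with log2 fold changes from -0.06 for mt-Co3 to 0.57 for mt-Co2 (adjusted p from 0.0671 to 0.825). DESeq2 called 2 of the 5 higher, beside 1506 of the 13299 tested genes, and limma-voom called none, beside 1653 called higher. By edgeR, 12.7% of all tested genes were called higher. With edgeR, unadjusted p lay under 0.05 for mt-Co1 (0.0215), mt-Co2 (0.0261) and mt-Atp6 (0.0295). When S1P-treated replicate 2 was left out, mt-Cytb was at -0.02, mt-Co1 at 0.17 and mt-Atp6 at 0.26, none of them called.

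**Figure D4:**
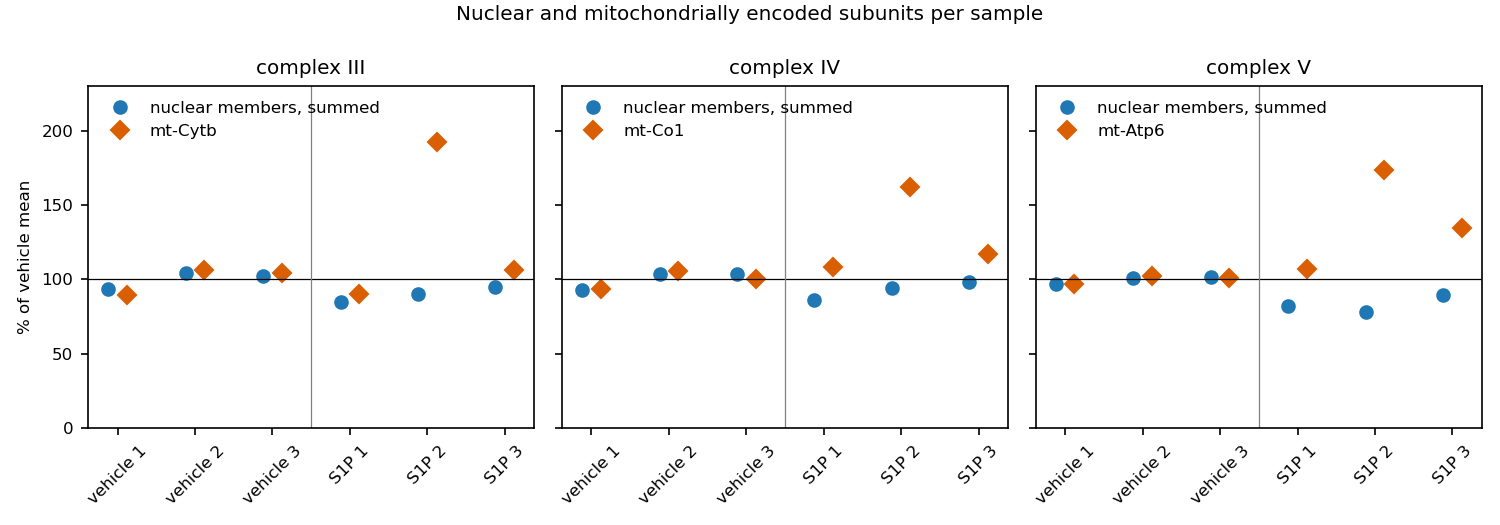
Summed normalized counts of the nuclear members (circles) and counts of 1 mitochondrially encoded subunit of the same complex (diamonds) in each sample, as percent of the vehicle mean. Nuclear sums of S1P-treated samples lie between 77.8% and 98.0%, whereas the mitochondrially encoded genes reach 162% to 192% in S1P-treated replicate 2.

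Other genes of the pathway were read from lists. Of 37 complex I subunits, the entry point for NADH electrons, 10 were called lower (27.0%, beside 10.4% of all tested genes) and 2 higher (5.41%, beside 12.7%), with a median log2 fold change of -0.17. The largest falls were those of Ndufa11 (-0.67), Ndufb6 (-0.52) and Ndufb8 (-0.51). Ndufv3 rose by 0.89 (adjusted p = 6.62e-05) and Ndufa12 by 1.15 (adjusted p = 0.0248), both accessory subunits, and the groups of Ndufa12 overlapped. Without S1P-treated replicate 2 the counts were 6 lower, beside 9.15% of all tested genes, and 1 higher, beside 1588 of 13657 genes. Ndufa12 then lost its call (0.74, adjusted p = 0.0592). Of the 4 subunits of complex II, which feeds electrons from succinate, Sdhd (-0.44) and Sdhb (-0.42) were called lower (50%, beside 10.4% of all tested genes). With S1P-treated replicate 2 left out, 2 of the 4 were called lower, beside 9.15%.

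Of 3 genes that serve complexes III and IV but fall outside the name rule, 2 were called lower (66.7%, beside 10.4% of all tested genes). Cyc1, cytochrome c1 of complex III, had 1050.2, 1058 and 1034 normalized counts with vehicle and 756, 587 and 699 with S1P, without overlap. Its log2 fold change of -0.62 (SE 0.09, adjusted p = 0.000588) was larger in size than that of any complex III member. Ndufa4, now counted as a subunit of complex IV, fell by 0.37 (adjusted p = 0.0153). Cycs, the mobile carrier cytochrome c, was at -0.22 (adjusted p = 0.207). It was called lower when S1P-treated replicate 2 was left out (-0.38, adjusted p = 0.00389). All 3 genes were then called lower, beside 9.15% of all tested genes.

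Assembly factors help to build the complexes without being part of them. For complex III, Uqcc4 (-0.50) and Uqcc2 (-0.35) were called lower among 9 tested (22.2%, beside 10.4%). For complex IV, Coa7 (-0.52), Coa6 (-0.50) and Cox10 (-0.44), the last of which makes heme O, were called lower among 22 tested (13.6%, beside 10.4%). In the same list Higd1a (0.59), a small protein of the complex known to respond to low oxygen, and Sco1 (0.43), a copper chaperone, were called higher (9.09%, beside 12.7%), so both counts lay near the background. None of 6 complex V assembly factors was called by edgeR, DESeq2 or limma-voom. Tmem70, which helps to build the c ring into the complex, was the 1 with an unadjusted p under 0.05, at -0.28 (adjusted p = 0.0199), under the fold threshold. Without S1P-treated replicate 2 the counts of called assembly factors were the same in each list, beside 9.15% of all tested genes called lower.

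Of 11 tested regulators of nuclear respiratory genes, 2 were called lower by edgeR (18.2%, beside 10.4%) and 1 by DESeq2 (beside 10% of all tested genes). Pprc1, a coactivator of the PGC-1 family, had 2214, 2046 and 2180 normalized counts with vehicle and 1548, 1471 and 1538 with S1P. It fell by 0.50 (SE 0.07, adjusted p = 0.000299). Esrra, the nuclear receptor ERR alpha, fell by 0.37 (SE 0.12, adjusted p = 0.0361). Nrf1 passed the adjusted p alone (-0.25, adjusted p = 0.0155), with no overlap between groups. The other tested regulators were not called, with log2 fold changes of 0.15 for Gabpa, 0.03 for Gabpb1, 0.06 for Gabpb2, -0.07 for Yy1, -0.28 for Ppargc1b, -0.04 for Sp1, 0.14 for Myc and -0.07 for Tfam. Ppargc1a, which encodes PGC-1 alpha, was under the filter, with 0.935 to 5.03 normalized counts with vehicle and 2.28 to 16.6 with S1P, the highest in S1P-treated replicate 2.

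**Figure D5:**
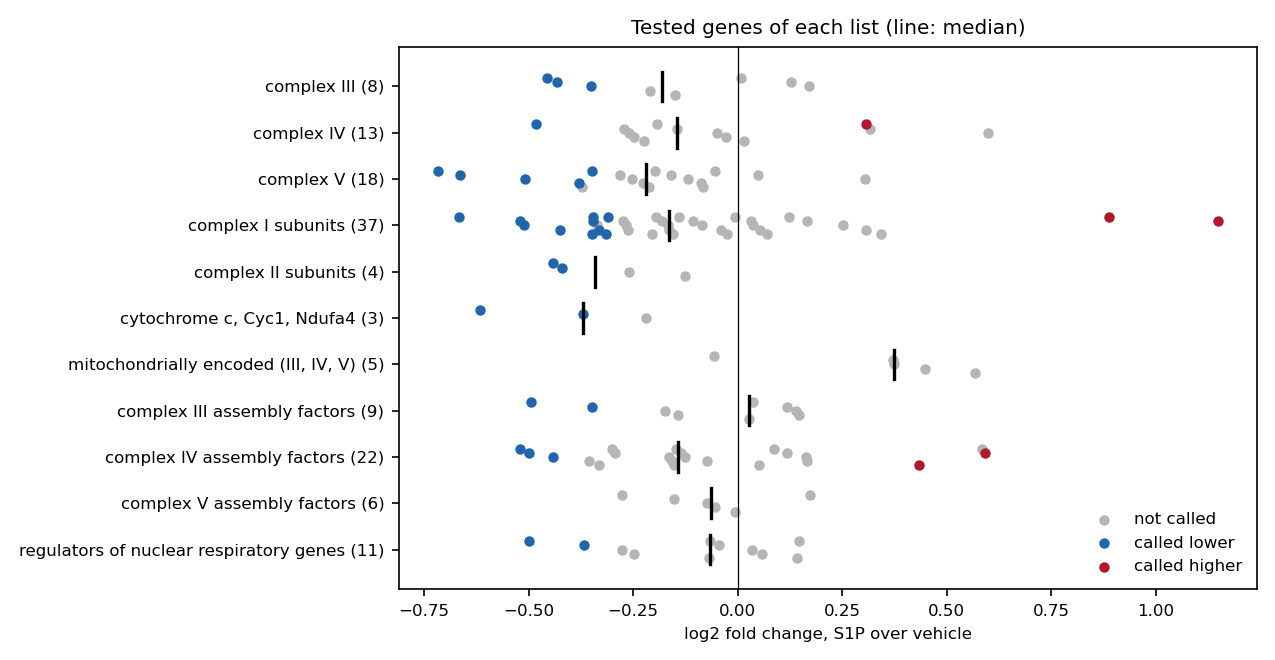
Log2 fold changes of S1P over vehicle for the tested genes of each complex and list (number in brackets), coloured by call, with a line at the median. Medians are -0.18, -0.14 and -0.22 for complexes III, IV and V, -0.17 for complex I and 0.37 for the mitochondrially encoded subunits (0.17 for the same 5 genes without S1P-treated replicate 2).

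Some marker genes of cell types also differed between the groups. Among the T cell genes Cd8a (-0.67, adjusted p = 0.000243) and Cd8b1 (-0.55, adjusted p = 0.00767) were called lower, Cd3d and Cd3g were at -0.28 and -0.21, Cd3e at 0.15 and Trac at -0.08. Among the B cell genes Cd22 (-0.44, adjusted p = 0.00642) and Ms4a1 (-0.39, adjusted p = 0.00889) were called lower, Cd79a and Cd79b were at -0.11 and -0.27, and Pax5 was at 0.33 without a call by edgeR, whereas DESeq2 called 1 B cell gene higher. Of the CD4 T cell genes Cd40lg rose by 0.50 (adjusted p = 0.0134), and Cd4 was at 0.10 and Foxp3 at 0.02. Whether these moves bear on the members was not tested.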

How the data were processed

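RNA-seq counts of 6 samples were analysed, 3 S1P-treated and 3 vehicle-treated. Per the labels and the study's methods, reads were trimmed (Trim Galore), aligned (STAR, with build GRCm39 in the submitters' processing notes) and summed per gene (featureCounts), and the deposited counts are whole numbers without normalization. The libraries keep strand, but whether counting used it, how reads with several matches were treated and which annotation was taken are not given in the sources used here, and these could change the counts of members with copies or antisense neighbours. Symbols, positions and lengths (1 canonical transcript a gene) came from GENCODE vM39, which held 56323 of 56941 identifiers.

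Counts were filtered with filterByExpr, scaled with TMM factors and tested with the quasi-likelihood test of edgeR 4.0.16 (R 4.3.3). The model held treatment alone, and p values were adjusted by Benjamini-Hochberg over 13299 genes. Both thresholds, 0.05 for the adjusted p and 0.3 for the size of the log2 fold change, are those of the study. Normalized counts refer to the geometric mean library. Shares of the c ring were compared by an exact permutation test over samples. Copies were exact matches of 100-base stretches of the canonical transcript elsewhere in GRCm39. Promoter windows came from RefSeq (GRCm38.p6), and the printed stretches were placed in GRCm39 by exact match. Fits were tested on simulated counts with set changes and no outlying library, which does not show how well the smaller changes described above are found. Alternatives were DESeq2 1.42.0, limma-voom (limma 3.58.1), other factors and filters, GC and length offsets (lowess, span 0.3), the replicate number as a block, no mitochondrial genes, no fold threshold and leaving out each library.

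The members and lists were chosen with earlier results of these data known. By rule, full values were given for members past both thresholds, the c ring, F1 alpha and beta, core and Rieske genes and the largest rise and fall of each complex. From other lists, at most 3 called genes per direction and every regulator were named. Values of Cyc1 and Pprc1 in each sample, Tmem70, Uqcrb and the cell type markers were added after the data were seen. Some marker genes are not reported here.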

Additional observations from a re-analysis of the deposited data

How the results depend on the processing

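Of the results that answer a comparison, 163 values under alternatives stayed within the limits set for them and 25 moved. Counts had to stay within a fixed ratio of the main value, and medians and shares within the spread between replicates. Medians with no fold threshold are the same by construction and are among the 163. Among members not called with all samples, the log2 fold changes of Uqcrb (-0.15 to 0.38), Cox5b (-0.18 to 0.12), Atp5pd (-0.08 to 0.16) and Cox5b-ps (-0.29 to 0.68), among others, changed sign without single libraries. Members called lower were 9, and 16 with no fold threshold. Without each library in turn they ranged from 3 (without vehicle-treated replicate 3) to 13 (without S1P-treated replicate 3), where 7.12% and 9.61% of all tested genes were called lower, and were 4 when vehicle-treated replicate 2, and 5 when S1P-treated replicate 2, was left out. Members called higher were 1, and 0 with total counts as the only scaling and with no filter on low counts, and from 0 to 3 without each library. Leaving out S1P-treated replicate 1 added Uqcrb (0.38, edgeR adjusted p = 0.0339) and Atp5if1 (0.48, edgeR adjusted p = 0.0247) to the members called higher. Complex III members called lower ranged from 0 to 3 without each library. For complex IV the count of 1 became 2 with total counts only, with no filter, with the GC offset and with the replicate block together with the GC offset, 4 with no fold threshold, and 1 to 4 without each library. For complex V the count of 5 became 8 with no fold threshold and 2 to 7 without each library. The difference in the share of Atp5mc1, -2.28 percentage points, was -1.53 with raw counts, -4.56 with unique stretches as length (chosen after the data were seen) and -2.63 to -1.92 without each library. The causes of these moves were not tested, apart from the fold threshold, whose removal adds members by construction. The median log2 fold change of complex IV ranged from -0.21 (without vehicle-treated replicate 1) to -0.05 (without S1P-treated replicate 1), a move within the limit set by the spread between replicates. Over all genes, calls went from 3071 to between 2119 and 3228 without each library. With no filter the median of all genes was 0.16, against 0.01, and with upper-quartile factors 60.4% of calls were higher, against 54.9%.

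The replicate number used as a block gave 10 members called lower and 3120 calls in all. Deviations of same-numbered samples correlated by 0.12, -0.00598 and 0.0483 for replicates 1 to 3, and the labels name no shared animal or batch, so the numbers were not taken as pairs. Of the S1P-treated replicates, 1 correlated best with its own number and 3 likewise, and 2 with vehicle-treated replicate 3 (0.0496). Members with few counts, such as Cox6b2 (SE 0.35), carry wider errors than abundant ones such as Cox4i1 (SE 0.06).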
